A study of Mus musculus with 4 samples.

Results

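The proteasome is the protease that degrades ubiquitin-tagged proteins, and the ubiquitin-conjugating enzymes (E2, gene prefix Ube2) carry ubiquitin or a related modifier to the substrate. The members described here are the probe sets whose only gene symbol starts with Psma, Psmb, Psmc, Psmd, Psme or Ube2. The prefixes took 63 of the 8251 genes with such a probe set, read by 82 of the 12488 probe sets on the array. Of these, 68 probe sets of 57 genes were bright enough to be tested, and the other 14 had signals of 0.50 to 31.4 on the 4 arrays. The genes Psmc4, Psmd2, Ube2e3, Ube2t, Ube2w and Psmc3ip had no tested probe set. Psmc3ip and Psme3ip1 share a prefix but encode partner proteins and not subunits, so they belong to none of the subunit classes. Both probe sets annotated to Psme2 also carry Psme2b, so Psme2 is not among the members.

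The cells were thioglycolate-elicited peritoneal exudate cells of female BALB/c mice aged 6 to 8 weeks. Thioglycolate (2 ml at 3%) was injected into the peritoneum 4 days before the harvest. The cells were kept overnight in serum-free medium with porcine TGFb2 (5 ng, for which the labels give no volume) or with PBS, and the adherent fraction, labelled as over 95% F4/80+, gave the RNA. Each group held 2 Affymetrix arrays, PBS replicates 1 and 2 and TGFb2 replicates 1 and 2. Whether replicates were separate cultures or animals is not given in the labels, and the p-values here can speak only for the spread among these 4 arrays, which may be technical. In such bulk RNA, fewer cells of a type and less RNA per cell cannot be told apart.

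In the 26S proteasome a barrel, the 20S core, is built from rings of alpha (Psma) and beta (Psmb) subunits, and the beta ring holds the proteolytic sites. The 19S cap, with ATPase (Psmc) and non-ATPase (Psmd) subunits, binds ubiquitin chains, unfolds the substrate and feeds it into the barrel. In cells exposed to interferon, and constitutively in many leukocytes, the beta subunits Psmb5, Psmb6 and Psmb7 are replaced by Psmb8, Psmb9 and Psmb10, in that order, in newly built particles. This immunoproteasome and the PA28 activator (Psme1 with Psme2) generate peptides for MHC class I.

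Upstream windows of the members were searched for 4 short regulatory motifs, and 5 of the windows are printed because they belong to the member that rose, to the tested ATPase subunit with the lowest difference, to a subunit whose probe sets differed from each other, and to the pair of immunoproteasome subunits of the MHC region. Each is the 250 bases before the annotated start from RefSeq (GRCm38.p6), written towards the start, and capitals mark any match to a searched motif.
Psmd1, chr1:86064369-86064618, plus strand: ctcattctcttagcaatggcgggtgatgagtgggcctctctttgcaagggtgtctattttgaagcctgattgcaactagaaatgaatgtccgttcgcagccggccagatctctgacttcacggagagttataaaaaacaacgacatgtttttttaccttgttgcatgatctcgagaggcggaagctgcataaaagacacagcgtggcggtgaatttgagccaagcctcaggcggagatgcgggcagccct
Psmc6, chr14:45329574-45329823, plus strand: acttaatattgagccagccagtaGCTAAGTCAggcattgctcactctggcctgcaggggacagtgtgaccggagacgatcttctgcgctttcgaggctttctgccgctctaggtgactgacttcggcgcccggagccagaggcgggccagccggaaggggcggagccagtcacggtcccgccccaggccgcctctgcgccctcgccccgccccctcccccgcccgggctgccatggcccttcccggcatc
Psmb5, chr14:54617996-54618245, minus strand: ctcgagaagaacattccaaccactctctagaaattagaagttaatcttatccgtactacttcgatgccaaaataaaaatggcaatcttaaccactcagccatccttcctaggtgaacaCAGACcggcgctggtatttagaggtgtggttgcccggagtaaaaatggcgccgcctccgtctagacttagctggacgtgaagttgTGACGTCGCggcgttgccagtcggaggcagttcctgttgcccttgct
Psmb8, chr17:34197945-34198194, plus strand: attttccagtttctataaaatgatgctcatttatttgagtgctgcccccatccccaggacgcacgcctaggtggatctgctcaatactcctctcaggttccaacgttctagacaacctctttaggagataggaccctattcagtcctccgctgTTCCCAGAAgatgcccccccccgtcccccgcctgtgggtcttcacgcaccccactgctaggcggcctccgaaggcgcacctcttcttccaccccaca
Psmb9, chr17:34187331-34187580, minus strand: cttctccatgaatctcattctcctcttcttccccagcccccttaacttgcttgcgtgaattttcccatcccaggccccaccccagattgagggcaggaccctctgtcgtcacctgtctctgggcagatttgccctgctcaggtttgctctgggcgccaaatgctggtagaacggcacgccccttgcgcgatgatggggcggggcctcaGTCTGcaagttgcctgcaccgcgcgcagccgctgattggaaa
The motifs were the antioxidant response element (TGACNNNGC), bound by the proteasome gene activator Nfe2l1, the interferon-stimulated response element (GAAA, any 2 bases, GAAA), the gamma-activated site (TTCNNNGAA) and the Smad box (CAGAC), each on both strands. Psmd1 held 0 matches in this window. Psmb5 held TGACGTCGC starting 47 bases before the start and a Smad box 132 bases before it, Psmc6 an antioxidant response element 227 bases before it, Psmb8 a gamma-activated site 97 bases before it and Psmb9 a Smad box 42 bases before it. RefSeq windows were found for 52 of the 63 member genes, 61 windows in all. The antioxidant response element was in 9.84% of them and in 10.2% of all 32851 windows of this length, and the Smad box in 27.9% and 42.2%. The interferon-stimulated response element was in 4.92% and 2.98%, and the gamma-activated site in 4.92% and 7.02%. These are letter matches only.

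The arrays are MAS5 signals with equal trimmed means, and any pair of arrays correlated at 0.954 to 0.979 on the log2 scale over the probe sets tested. Macrophage markers were bright (Cd68 at 5851 to 7363, the F4/80 gene Adgre1 at 471 to 780 in its bright probe set), and the list of 13 probe sets summed to 15499 to 16346 with PBS and 17435 to 17718 with TGFb2, with 0 of 9 tested past the threshold. Most of that sum was Cd68 and Lyz2. The bright Cd68 probe set was higher without overlap (log2 difference, TGFb2 minus PBS, 0.23). The bright Lyz2 probe set was lower without overlap (-0.10). Cd14 (-0.19) and the bright Adgre1 probe set (-0.05) had negative differences with overlapping groups. Both probe sets of Fcgr1 (2.40-fold and 2.20-fold, limma adjusted p = 0.0539 and 0.0660), Mertk (1.71-fold), Itgam (1.66-fold) and Csf1r (1.46-fold) had higher values on both TGFb2 arrays without passing, and all but Mertk passed in 1 or 2 of the alternative settings. Chains of the T cell CD3 complex were dim (Cd3g at 0.80 to 2.20, Cd3d at 0.10 to 12.0, Cd3e at 7.60 to 11.8), Cd4 read 14.3 to 52.8, and Cd2 read 5.50 and 5.80 with PBS and 29.4 and 22.7 with TGFb2. The 8 probe sets of T and NK cells summed to 49.0 to 84.5 with PBS and 79.6 to 81.8 with TGFb2. The 10 neutrophil probe sets summed to 329 to 365 with PBS and 777 to 851 with TGFb2. Of these S100a8, which activated macrophages also express, was the one past the threshold. Camp was higher without overlap (74.8 and 63.4 with PBS, 94.3 and 82.4 with TGFb2) and did not pass. The groups of the other neutrophil probe sets overlapped. Among them S100a9 read 3.4 and 6.1 against 28.9 and 5.3, and Ly6g stayed at 7.0 to 11.7. The 19 fibroblast and mesothelium probe sets summed to 1916 to 2690 and to 2503 to 2830. Of these, 3 were called higher (2 of Col1a1, 1 of Col1a2) and 1 lower (Dcn). The other Col1a2 probe set read 376 and 408 with PBS and 480 and 399 with TGFb2, with overlap (log2 difference 0.16, limma adjusted p = 0.779). The sums of 7 B cell probe sets were 1761 to 1809 and 1791 to 2082, of 5 dendritic cell probe sets 1210 to 1229 and 1227 to 1353, and of 10 eosinophil and mast cell probe sets 185 to 223 and 294 to 363. Most of the B cell sum was Blnk, while Cd79a read 49.7 to 55.5. Most of the dendritic cell sum was Itgax, while Ccr7 read 4.0 to 13.0. The 3 tested eosinophil and mast cell probe sets, both of Tpsb2 and a dim one of Cpa3, were higher without overlap, and 0 passed. The brighter Tpsb2 probe set read 125 and 112 with PBS and 186 and 146 with TGFb2. Groups of Kit and of the untested Cpa3 probe set overlapped. The part of any of these cell types in the members' values was not tested. The ratio of 3' to 5' signal, a measure of RNA quality, was 1.11 and 1.12 with PBS and 1.04 and 1.08 with TGFb2 for Actb. For Gapdh it was 0.80 and 0.84 with PBS and 0.71 and 0.78 with TGFb2, so both ratios were lower on both TGFb2 arrays, and the part of this in the members' values was not tested.

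The comparison of TGFb2 with PBS asks how this cytokine, which the study uses to obtain tolerogenic macrophages, changes their transcripts. Of the 68 tested members 1 passed, the 19S subunit gene Psmd1, which was higher with TGFb2, and 0 were called lower (limma, Benjamini-Hochberg adjusted p under 0.05 over all 7453 tested probe sets). That is 1.47% of the members, beside 1.18% of all tested probe sets in either direction, 0.818% higher and 0.362% lower. At an unadjusted p under 0.05 there were 9 members (13.2%), beside 11.6% of all. Members with groups that did not overlap were 10 higher and 18 lower, 14.7% and 26.5%, beside 21.1% and 21.7% of all tested probe sets (42.8% in either direction). The median log2 difference, TGFb2 minus PBS on the log2(signal + 15) scale, was -0.08 over the members and -0.00082 over all tested probe sets. Below 0 were 45 of the 68 members, beside 3739 of the 7453 tested probe sets. The sign changed in 34 of the 68 when 1 array was left out, a count that was not made over all tested probe sets. A log2 difference of at least 0.5 in either direction was found for 8 members (11.8%) and for 12.3% of all. With a median standard error of 0.17 for the members, small shifts of single genes lie below what 2 arrays a group can resolve.

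**Figure D1:**
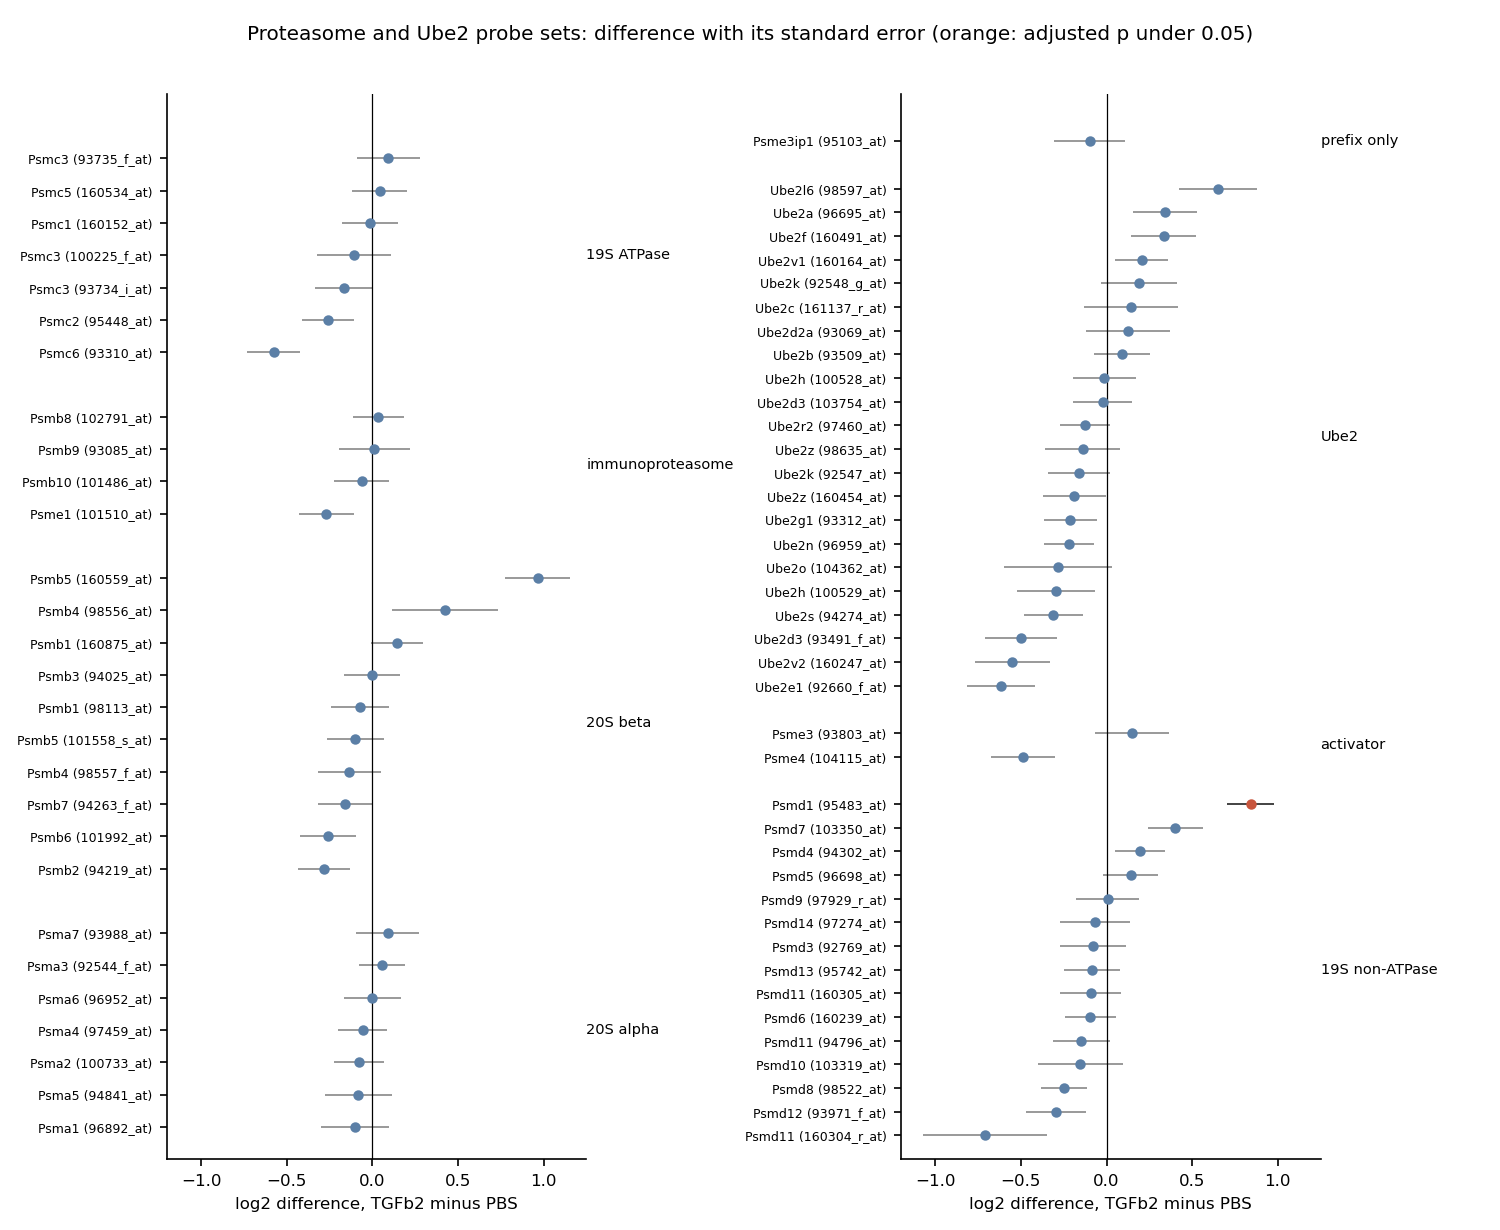
Log2 difference (TGFb2 minus PBS, x axis) of each of the 68 tested probe sets, grouped by class, with its standard error as a line (2 arrays a group). Psmd1, drawn in orange, is the one past an adjusted p of 0.05, and 60 of the 68 lie within 0.5 of 0.

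Psmd1 encodes a large scaffold subunit of the 19S base. Its signal was 681 and 644 with PBS and 1190 and 1206 with TGFb2. The groups stood far apart, and the arrays within each group lay close together. The log2 difference was 0.84 ± 0.14 (SE), a 1.79-fold rise with a 95% interval of 1.43 to 2.24 (limma, adjusted p = 0.0431). It lay between 0.80 and 0.88 in all 12 alternative settings. The call was lost when any array was left out (adjusted p = 0.115 to 0.181, the remaining array of that group being assumed to vary like the other group), without the filter on dim probe sets (0.107) and without the intensity trend (0.127), and it was kept in the other 6 settings.

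In RefSeq's gene table of GRCm38.p6 the serotonin receptor gene Htr2b lies inside the span of Psmd1. Htr2b had signals of 55.6 and 60.9 with PBS and of 303 and 318 with TGFb2. Both the host and the nested gene were therefore higher on each TGFb2 array than on each PBS array. For Htr2b the log2 difference was 2.15 ± 0.17 (SE) (limma, adjusted p = 0.00321), and it passed in all 12 alternative settings. Whether probes of one of these genes also read transcripts of the other was not tested. Mlx and Nkiras1, which overlap Psmc3ip and Ube2e1, differed by 0.26 and 0.15 and did not pass (limma, adjusted p = 0.616 and 0.892). Mir686 lies inside Psmb5, and no value is given for it because its probe set is tied to the microRNA by symbol alone. The overlaps were looked up after the values of Psmd1 and Htr2b were known.

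**Figure D2:**
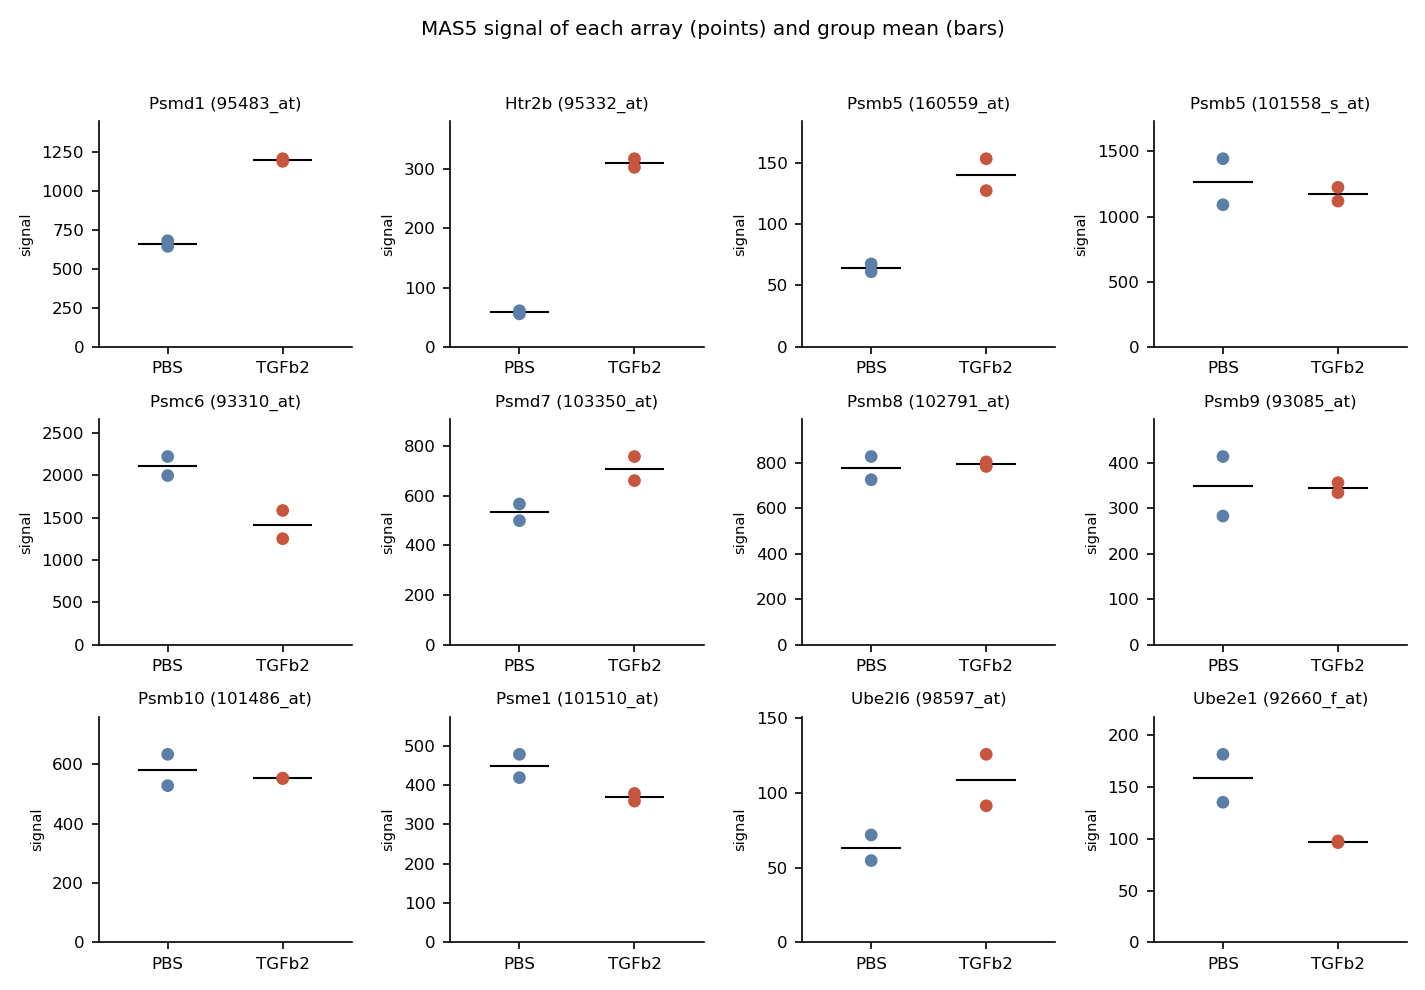
MAS5 signal (y axis, linear from 0) of 11 member probe sets and of Htr2b on each array, blue for PBS and orange for TGFb2, with a bar at each group mean (n = 2). Psmd1 and Htr2b are higher on both TGFb2 arrays, the dim but not the bright Psmb5 probe set separates the groups, and the points of Psmb8, Psmb9 and Psmb10 overlap.

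The other 19S non-ATPase subunits did not pass. Psmd7, which pairs with the deubiquitinase Psmd14 in the lid, had signals of 567 and 499 with PBS and 661 and 758 with TGFb2, without overlap. Its log2 difference was 0.40 ± 0.16 (SE) (limma, adjusted p = 0.389). Psmd14 itself, which removes the ubiquitin chain, read 363 and 453 with PBS and 330 and 451 with TGFb2, so its groups overlapped. The ubiquitin receptor Psmd4 had signals of 572 and 607 with PBS and 685 and 669 with TGFb2, a log2 difference of 0.20 (adjusted p = 0.673). The lowest of the class was a dim probe set of the lid subunit Psmd11, with 49.0 and 83.5 against 52.3 and 20 (log2 difference -0.71, standard error 0.36, adjusted p = 0.514). The brighter probe sets of Psmd11 differed by -0.15 and -0.09. The assembly chaperones of the base, Psmd5, Psmd9 and Psmd10, differed by 0.14, 0.01 and -0.15. The lid subunits Psmd8 and Psmd12 were lower without overlap. Psmd8 read 1496 and 1495 with PBS and 1334 and 1181 with TGFb2 (log2 difference -0.25, adjusted p = 0.540), and Psmd12 read 218 and 241 against 172 and 198 (-0.29, adjusted p = 0.587). Over the 15 tested probe sets of the class, 5 were above 0 and 10 below, with a median of -0.08.

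Among the ATPases that thread the substrate into the core, Psmc6 had the lowest difference. Its signals were 2223 and 1998 with PBS and 1252 and 1586 with TGFb2. All TGFb2 values were below all PBS values, with a log2 difference of -0.58 ± 0.15 (SE) that did not pass (limma, adjusted p = 0.176). The ATPase Psmc2 read 662 and 760 with PBS and 573 and 607 with TGFb2, a log2 difference of -0.26 (adjusted p = 0.585). Psmc1 was level at 214 and 218 against 215 and 212, with a log2 difference of -0.01 and a 95% interval of -0.40 to 0.37. The 3 tested probe sets of Psmc3 differed by -0.17, -0.11 and 0.09, the last being the highest of the class, and Psmc5 by 0.04. Over the 22 tested probe sets of the 19S cap the median was -0.09, with 4 higher and 5 lower without overlap (18.2% and 22.7%, beside 21.1% and 21.7% of all tested probe sets).

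The alpha subunits of the core had the narrowest range of differences among the classes with more than 1 tested probe set. All 7 were tested, and 0 of the 7 had groups without overlap, beside 42.8% of all tested probe sets. Their log2 differences ran from -0.10 for Psma1 to 0.09 for Psma7. Psma1 read 195 and 270 with PBS and 205 and 222 with TGFb2. Psma7 read 598 and 707 with PBS and 796 and 604 with TGFb2. In both, the difference between arrays of 1 group was larger than the difference between the group means. Psma3 had signals of 2159 and 2590 against 2407 and 2506, and Psma6 of 1420 and 1591 against 1311 and 1723. The median of the class was -0.06.

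Of the beta subunits, Psmb5 carries the chymotrypsin-like site, Psmb6 the caspase-like site and Psmb7 the trypsin-like site. The bright probe set of Psmb5 had signals of 1090 and 1444 with PBS and 1119 and 1224 with TGFb2, a log2 difference of -0.10 with a 95% interval of -0.49 to 0.29. The dim one had 67.6 and 61.2 with PBS and 153 and 127 with TGFb2. Its log2 difference of 0.96 ± 0.19 (SE) missed the threshold (limma, adjusted p = 0.0693). The probe sets of this gene therefore disagreed by 1.06 on the log2 scale, and the files do not say which part of the transcript each one reads.

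Psmb6 read 1205 and 1471 with PBS and 1221 and 1009 with TGFb2 (log2 difference -0.26, adjusted p = 0.615), and Psmb7 read 587 and 685 against 573 and 559 (log2 difference -0.16, adjusted p = 0.754). Psmb7 did not overlap between the groups and Psmb6 did. Psmb2, a beta subunit without a proteolytic site, had the lowest difference of the class, -0.28, with 592 and 565 against 452 and 494 (adjusted p = 0.534). Psmb4, another such subunit, differed by -0.13 in its bright probe set (1577 and 1762 against 1809 and 1273) and by 0.42 in a dim one (15.3 and 29.3 against 40.4 and 28.6), and both overlapped. Psmb1 differed by 0.14 and -0.08 in its 2 tested probe sets and Psmb3 by -0.00. Over the 17 tested probe sets of the constitutive core the median was -0.08, with 2 higher and 2 lower without overlap (11.8% each, beside 21.1% and 21.7% of all tested probe sets).

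The immunoproteasome subunits, set apart from the start, had signals that overlapped between the groups, apart from Psme1. Psmb8, the inducible partner of Psmb5, had signals of 726 and 828 with PBS and 805 and 785 with TGFb2, so that the TGFb2 values lay between the PBS values. Its log2 difference was 0.03 ± 0.15 (SE), a 1.02-fold value with a 95% interval of 0.81 to 1.30 (limma, adjusted p = 0.964). Psmb9, which replaces Psmb6, read 283 and 413 with PBS and 334 and 356 with TGFb2, a log2 difference of 0.01 with an interval of -0.47 to 0.49. Psmb10, which replaces Psmb7, read 529 and 634 with PBS and 552 and 554 with TGFb2, a log2 difference of -0.06 with an interval of -0.44 to 0.31. For all 3 subunits the TGFb2 arrays fell within the range of the PBS arrays.

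Psme1, the alpha chain of the PA28 cap, had signals of 419 and 478 with PBS and 379 and 359 with TGFb2. Of the 4 tested immunoproteasome probe sets it alone was without overlap. That is 25% lower and 0% higher, beside 21.7% and 21.1% of all tested probe sets. The log2 difference of Psme1, -0.27, did not pass (standard error 0.16, limma, adjusted p = 0.588). A dim probe set of Psme1, with 1.5 to 9.4, was not tested. The median of the 4 tested members was -0.03, beside -0.08 for the constitutive core, and the difference between the groups was not tested. In the constitutive subunit and its counterpart the log2 differences stood at -0.10 and 0.03 for Psmb5 (bright probe set) and Psmb8, at -0.26 and 0.01 for Psmb6 and Psmb9, and at -0.16 and -0.06 for Psmb7 and Psmb10. With the bright Psmb5 probe set, the intervals of each pair overlapped. The interval of the dim Psmb5 probe set, 0.52 to 1.41, lay above that of Psmb8, -0.31 to 0.38. Whether the subunits of a pair differed from each other in their response was not tested.

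Other genes of peptide presentation by MHC class I, and a regulator of them, did not pass either. The peptide transporter chain Tap1, the neighbour of Psmb9, read 92.7 and 149 with PBS and 138 and 131 with TGFb2 (log2 difference 0.17, limma adjusted p = 0.840). Its partner Tap2 read 47.6 and 41.8 against 74.1 and 46.5 (0.31, adjusted p = 0.703). Beta-2 microglobulin (B2m), the light chain of MHC class I, read 5636 and 5567 against 5664 and 5280 (-0.03, adjusted p = 0.933). The transcription factor Irf1 read 144 and 162 against 144 and 138 (-0.11, adjusted p = 0.875). In each of these 4 genes the groups overlapped, while 42.8% of all tested probe sets had groups without overlap.

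The alternative caps differed from each other in sign. Psme4, a large ATP-independent activator of the core, had signals of 150 and 156 with PBS and 94.4 and 117 with TGFb2, without overlap (log2 difference -0.49, standard error 0.19, limma adjusted p = 0.374). Psme3, the nuclear relative of PA28, read 254 and 284 with PBS and 245 and 365 with TGFb2, so that 1 TGFb2 array lay above and 1 below both PBS arrays (log2 difference 0.15, adjusted p = 0.851). Psme3ip1, named for binding Psme3, differed by -0.10 (adjusted p = 0.909).

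Of the 22 tested Ube2 probe sets, for 18 genes, 0 passed. Groups did not overlap for 4 higher (18.2%) and 9 lower (40.9%), beside 21.1% and 21.7% of all tested probe sets, and the median log2 difference was -0.13. The lowest was Ube2e1, an E2 that works with many ubiquitin ligases, at 135 and 182 with PBS and 96.4 and 98.0 with TGFb2. Its log2 difference was -0.62 ± 0.20 (SE) (limma, adjusted p = 0.267). A probe set of Ube2d3, of the broadly acting UbcH5 family, read 197 and 286 against 157 and 171, a log2 difference of -0.50 (adjusted p = 0.423). The other probe set of Ube2d3 read 128 and 137 against 127 and 134, a difference of -0.02, with overlapping groups. The identifiers of the Ube2e1 probe set and of the first Ube2d3 probe set end in _f_at, which marks probes shared with related sequences, and the share of signal from other transcripts was not tested. The same ending holds for the probe sets of Psma3, Psmb7 and Psmd12, the bright one of Psmb4 and 2 of Psmc3. Ube2d2a, of the same family, differed by 0.13.

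Ube2n builds the non-degradative ubiquitin chains of immune receptor signalling together with a catalytically inactive partner, Ube2v1 or Ube2v2. Ube2n read 735 and 734 with PBS and 601 and 656 with TGFb2, without overlap (log2 difference -0.22, adjusted p = 0.624). The partners stood on opposite sides of 0. Ube2v2 read 69.9 and 86.4 with PBS and 54.6 and 42.7 with TGFb2 (log2 difference -0.55, standard error 0.22, limma adjusted p = 0.395). Ube2v1 read 464 and 499 with PBS and 526 and 590 with TGFb2 (0.20, adjusted p = 0.679). Both differences were without overlap and neither passed.

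The highest Ube2 gene was Ube2l6, the interferon-induced E2 that conjugates the ubiquitin-like modifier ISG15. It read 54.7 and 71.8 with PBS and 126 and 91.3 with TGFb2, without overlap, a log2 difference of 0.65 ± 0.23 (SE) (limma, adjusted p = 0.310). The modifier itself, Isg15, read 105 and 115 against 83.7 and 102 (-0.21, adjusted p = 0.736), and its activating enzyme Uba7 differed by -0.13 (adjusted p = 0.865). Ube2f, an E2 of the modifier Nedd8, read 73.0 and 83.9 against 97.5 and 108 (0.33, adjusted p = 0.568). Ube2a, which works in DNA damage tolerance and histone ubiquitination, read 159 and 157 against 231 and 181 (0.34, adjusted p = 0.550), and its close relative Ube2b differed by 0.09. Ube2s, which extends chains for the anaphase-promoting complex, read 185 and 171 against 135 and 146 (-0.31, adjusted p = 0.553). Ube2c, which starts those chains, was dim (33.0 to 55.6) and differed by 0.14.

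The remaining tested Ube2 probe sets had small or mixed differences. Those of Ube2h, an E2 of red cell maturation, differed by -0.29 and -0.01, and those of Ube2z, which is charged by Uba6, by -0.19 and -0.14. The probe sets of Ube2k, an E2 that can build degradative chains without a ligase, differed by 0.19 and -0.16, on opposite sides of 0. Ube2g1 and Ube2r2, which extend chains on cullin ligases, differed by -0.21 and -0.13, both without overlap, and Ube2o, a large combined E2 and ligase, by -0.28 with overlap.

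**Figure D3:**
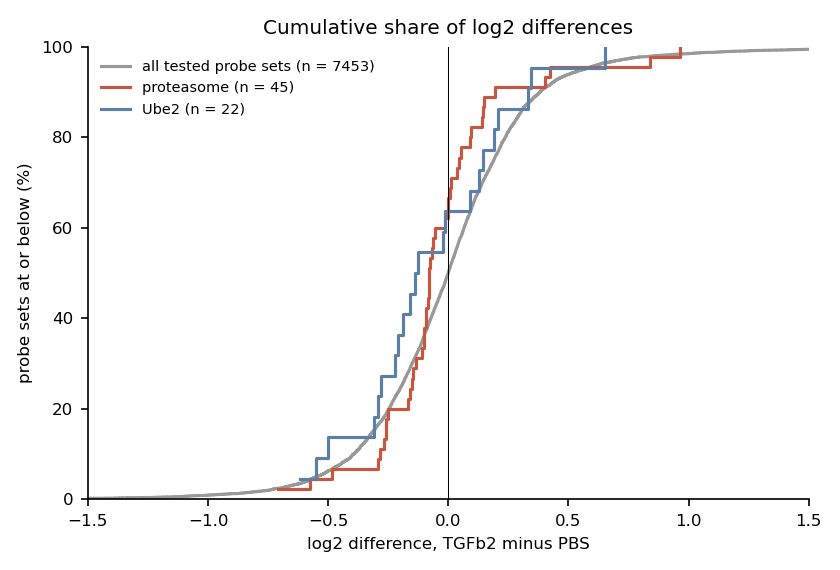
Cumulative share of probe sets (y axis, percent) at or below each log2 difference of TGFb2 against PBS (x axis) for 45 proteasome and 22 Ube2 probe sets and for all 7453 tested. Both member curves cross 0 above the curve of all tested probe sets, with 30 of 45 and 14 of 22 below 0, beside 3739 of 7453.

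The members also differed between arrays of the same group. PBS replicate 2 was above PBS replicate 1 in 48 of the 68 tested members (70.6%), beside 48.4% of all tested probe sets. In the constitutive core this held for 15 of 17 probe sets, with a median log2 gap of 0.22, in the immunoproteasome for 4 of 4 (0.22), in the 19S cap for 15 of 22 (0.10) and in Ube2 for 11 of 22 (0.00). The PBS gap of the core is thus larger in size than its median difference between the groups. TGFb2 replicate 2 was above TGFb2 replicate 1 in 19 of 22 Ube2 probe sets, beside 46.3% of all tested, with a median gap of 0.10. In the core it was 10 of 17 and in the 19S cap 13 of 22.

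**Figure D4:**
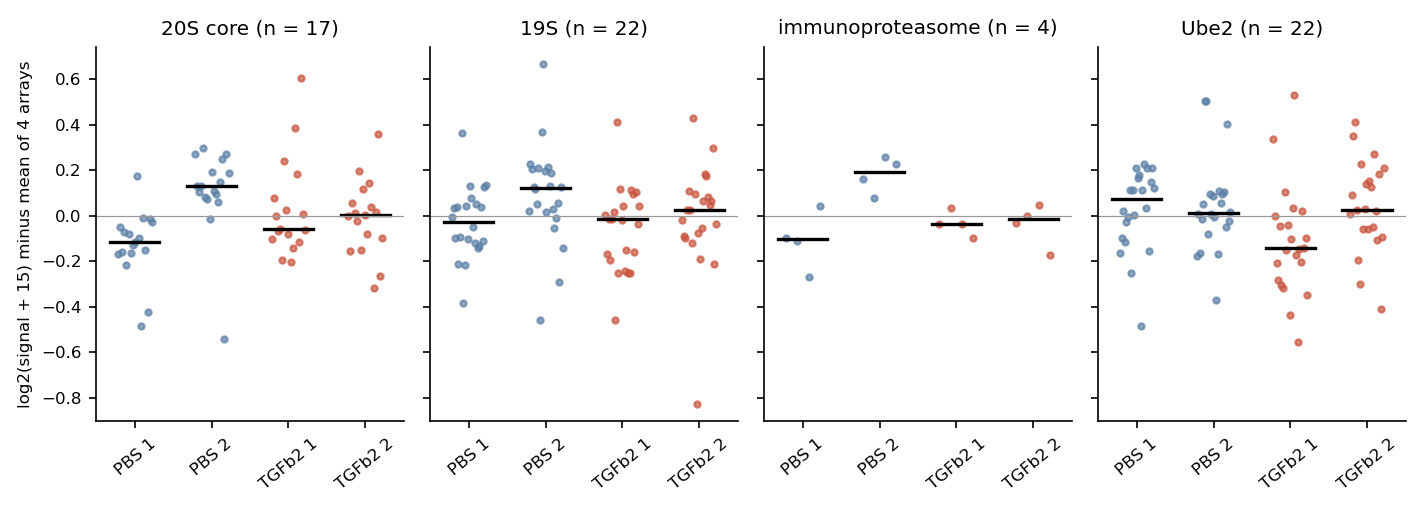
Deviation of log2(signal + 15) from the mean of the 4 arrays (y axis) for each tested probe set on each array (x axis), in 4 member groups, with a black line at the median. The core and immunoproteasome medians are -0.12 and -0.10 on PBS replicate 1 and 0.13 and 0.19 on PBS replicate 2, with both TGFb2 arrays between them.

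Leaving out an array moved the group medians accordingly. The core median was 0.10 without PBS replicate 2 and -0.17 without PBS replicate 1, and that of the immunoproteasome was 0.10 and -0.22. The median of the 19S cap was 0.0027 without PBS replicate 2 and -0.0039 without TGFb2 replicate 1, and that of Ube2 was 0.018 without TGFb2 replicate 1. The sign of each group's median therefore rested on single arrays.

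Other genes of the pathway were taken from a fixed list of activating enzymes, modifiers, assembly and shuttling factors, proteasome-bound enzymes and regulators. Of 37 tested probe sets 0 passed (limma), beside 1.18% of all tested probe sets, with log2 differences from -0.68 to 0.38 and a median of -0.09. The 4 activating enzyme genes Uba3, Uba7, Nae1 and Sae1 lay between -0.16 and -0.13. The lowest value belonged to Usp14, a deubiquitinase bound to the 19S cap, singled out after its values were seen. It read 281 and 254 with PBS and 160 and 161 with TGFb2, without overlap (log2 difference -0.68, standard error 0.17, adjusted p = 0.143), and it passed in 1 of the 12 alternative settings, the replicate block (adjusted p = 0.0475). Sem1, a small 19S subunit outside the prefixes, read 2513 and 2626 against 3761 and 2880 (0.36, adjusted p = 0.415), and the assembly chaperone Pomp 1255 and 1435 against 1133 and 1133 (-0.24, adjusted p = 0.570). Both were also chosen after their values were seen. Nfe2l1, the factor that raises proteasome gene transcription, differed by 0.15 and -0.05 in its probe sets, both with overlap. Its relative Nfe2l2, an oxidative stress regulator, read 1093 and 1213 with PBS and 834 and 1048 with TGFb2 (-0.30, adjusted p = 0.550), without overlap, and these regulators too were singled out with their values known.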

How the data were processed

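RNA of adherent peritoneal cells was labelled as biotinylated cRNA and measured on 4 arrays. The deposited values are MAS5 intensities (tool named in the submitters' processing notes, no version given), on a linear scale from 0.1 to 15281 with equal 2% trimmed means (150.1). No further scaling was applied. Detection calls and array dates were not used here. Control probe sets (66) were left out, and symbols came from the platform annotation, where all 63 member genes matched RefSeq's GRCm38.p6 table by symbol.

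Signals were taken to log2(signal + 15), a scale that understates the change of a dim gene. Probe sets with a mean log2 level at or above the 40th percentile (signal of about 24.0) were tested, 7453 in all. The model was TGFb2 against PBS over 4 arrays in limma (version 3.58.1, R 4.3.3; lmFit, then eBayes with intensity trend), two-sided, Benjamini-Hochberg adjusted over all, with 2 residual and 5.6 prior degrees of freedom. In 20 simulated runs with 7453 probe sets, 200 were changed in each run. On the log2(signal + 15) scale, changes of 2-fold were recovered in 39.8% and changes of 4-fold in 92.2%. The simulated noise was independent between probe sets, which leaves out shifts that genes of an array share. These rates therefore do not give the recovery for dim genes or for genes with shared shifts. The rates also hold only for 200 changed probe sets of these sizes, while 88 passed in the data. The number of arrays limits the precision.

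The members, gene lists and tests were chosen with earlier results of these data known. Named members were those past the threshold, the immunoproteasome and its constitutive counterparts, the 6 largest rises and 6 largest falls without overlap, genes whose probe sets disagreed in sign by over 0.5, the extremes of each class and listed pathway genes. Others are given as values. Alternatives covered pseudocount, normalization, filter, trend, replicate block, leaving out each array and, for medians, 1 probe set per gene.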

Additional observations from a re-analysis of the deposited data

How the results depend on the processing

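Of the 68 tested members 1 passed in the main setting, and 0 passed without the filter on dim probe sets, without the intensity trend or without any 1 of the arrays (0 to 0). With the replicate number as a block 3 passed (Psmd1, the dim Psmb5 probe set and Psmc6, adjusted p = 0.00360, 0.0109 and 0.0391), while over all probe sets the block raised the count from 88 to 320. The labels give arrays of different groups only a shared number, and whether these arrays were paired is not stated. Deviations of same-numbered arrays correlated at 0.15. The count over all probe sets was 58 with a pseudocount of 1, 6 without the filter, 16 without the trend and 11 to 42 when 1 array was left out. Group medians kept their sign in the settings with all arrays (core -0.08 to -0.06, 19S -0.09 to -0.07, immunoproteasome -0.06 to -0.0080, Ube2 -0.14 to -0.07). When 1 array was left out they ran from -0.17 to 0.10, -0.14 to 0.0027, -0.22 to 0.10 and -0.20 to 0.018. The difference changed sign in 34 of the 68 tested members when 1 array was left out and in 5 under the other settings. Sign changes were not counted over all tested probe sets. Among the genes named by the rule, those that changed sign when 1 array was left out ran from -0.071 to 0.26 (the highest Psmc3 probe set), -0.32 to 0.12 (Psma1), -0.11 to 0.29 (Psma7), -0.39 to 0.12 (the bright Psmb4 probe set), -0.30 to 0.10 (the bright Psmb5 probe set), -0.13 to 0.42 (Psme3), -0.19 to 0.064 (Psmb10), -0.059 to 0.13 (Psmb8), -0.25 to 0.27 (Psmb9), -0.14 to 0.47 (Tap1) and -0.085 to 0.016 (B2m), on the log2 scale. The cause was not tested. Signals near the filter level, such as those of the dim Psmb4 probe set, set no firm size of change.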
